A study of Mus musculus with 4 samples.

Results

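CTCF peaks at bidirectional promoters, short stretches from which a pair of protein-coding genes is read in opposite directions, were described in mouse gastrocnemius, the large calf muscle. CTCF was mapped by ChIP-seq in 4 libraries, 2 technical replicates from each of 2 pools, called pool E and pool F, and each pool joined 2 biosamples of gastrocnemius. The animals were adult B6CASTF1/J females, a hybrid strain, aged 2 months, with no treatment named in the labels, so the study holds 1 condition and no contrast between treatments. A pool averages its animals and every cell type of the muscle, and the technical replicates were already merged in every peak list. The depositors' conservative list, which keeps peaks ranked alike in both pools at an irreproducible discovery rate (IDR) of 0.05 or less, held 42163 peaks, 41000 of them on the 19 autosomes. A summit, the base where a peak is highest, was taken when it lay within 1 kb of a minus-strand and of a plus-strand gene start, the minus-strand start to the left and the starts at most 1 kb apart. This rule, applied with the GENCODE M21 annotation of mm10, found 217 summits, 0.529% of the autosomal peaks. They are called bidirectional summits here, and 1 of the 216 peak intervals behind them held 2 summits.

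Divergent gene pairs of this kind share a promoter that is usually rich in CpG and poor in TATA boxes, and they are known for housekeeping genes such as those of DNA repair and of mitochondria. CTCF carries many zinc fingers that together read a long stretch of DNA. It stops loop-extruding cohesin and marks the edges of many chromosome domains. It also binds near many promoters, and the factors best known for driving bidirectional promoters are the ETS family member GABPA and nuclear respiratory factor 1 (NRF1). No expression was measured, so whether either gene of a pair was active in this tissue is not known here.

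The annotation held 734 bidirectional pairs, made of 1448 of the 20807 autosomal protein-coding genes. A CTCF summit lay at 208 of them, 28.3% (95% Wilson interval 25.2 to 31.7), with 14 pairs holding 2 summits and 1 pair holding 3, and 7 summits matching 2 pairs. Summits of 1 list come from the same libraries and are not replicates, so shares are given with Wilson intervals and without a test, and the intervals cover counting error only. Peak strength below is the authors' score for each peak, on a scale not given in the sources used here, and the read depth behind it is unknown. Among all 41000 autosomal summits, 77.6% had a match to the 14-base CTCF core consensus with at most 2 mismatches, centred within 50 bp. Among the bidirectional summits, 82 (37.8%, 31.6 to 44.4) had one.

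The sites below are the CTCF matches of the strongest bidirectional summits. They show what the motif looked like where CTCF signal at these promoters was highest. Each is printed on the strand of the match in GRCm38, the assembly of mm10, with the 14 matching bases in capitals and 8 bases on either side.
Wrap53/Trp53, chr11:69579482-69579511, plus strand: ctccctggCCTGCAGAGGGCGCataatttc
Hnrnpdl/Enoph1, chr5:100038992-100039021, minus strand: agcgcctcCCGCCAGGGGGCGCgccggagc
Nae1/Car7, chr8:104534653-104534682, plus strand: gcgcgcagCCAGTAGGGGGCGCcgacgctg
Abca17/Abca3, chr17:24351899-24351928, minus strand: gcccagctCCGACAGAGGGCGCtctgcgta
Nop14/Grk4, chr5:34660348-34660377, minus strand: acggttttCCTCCAGAGGGAGCccgagagc
Ddias/Prcp, chr7:92874513-92874542, plus strand: cgggctggACAGGAGGGGGCGCtgttgtag
Exd1/Chp1, chr2:119547120-119547149, minus strand: tccccccgGCCGCAGGGGGCGCtgagagcc
Tctn3/Entpd1, chr19:40612406-40612435, plus strand: tgatcccgCCGCTAGATGGCAGctggcaga
Dtl/Ints7, chr1:191575984-191576013, minus strand: agctgccgCCACTAGGTGGCGCcactcccc
Dram1/Gnptab, chr10:88379113-88379142, plus strand: ccctccgcCCTCTAGGTGGCGCtggcgact
Chmp1a/Spata33, chr8:123212997-123213026, minus strand: gggcctcgCCGCCAGGCGGCGCcctttacc
The Nae1/Car7 and Dtl/Ints7 sites matched the consensus without a mismatch, and they were the only such summits among the 217. Wrap53/Trp53, Hnrnpdl/Enoph1, Tctn3/Entpd1 and Dram1/Gnptab had 1 mismatch, and the remaining sites had 2. The GGC near the 3′ end of the core stood in all of these sites except that of Nop14/Grk4.

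Next come the best matches, with 3 mismatches each, at the strongest bidirectional summits that missed the motif criterion. They show the nearest sequence to the consensus at each. How often sequence away from summits comes as near was not counted.
Mrps12/Sars2, chr7:28742235-28742264, plus strand: ctggagctCCGCAAGGGGGAGCtgcggccg
B3galt6/Sdf4, chr4:155992384-155992413, minus strand: cgcagtgcGCAGCACGTGGCTGgcaccgga
Bysl/Med20, chr17:47611274-47611303, minus strand: gcctcctaACGCTGGGGGGCACtgtgatct
Thap2/Zfc3h1, chr10:115384955-115384984, plus strand: cggaagagCAGCAAGGGGGCGCtaggagag
Ccdc173/Phospho2, chr2:69790510-69790539, plus strand: ctgcatccCCAGCAAATTGTACctttctct
The Mrps12/Sars2, Bysl/Med20 and Thap2/Zfc3h1 sites kept the run of G bases in the middle of the core, while the B3galt6/Sdf4 and Ccdc173/Phospho2 sites did not.

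At some pairs the match lay wholly between the starts, outside both genes. For those with at most 300 bp between the starts and no annotated exon there, the whole interval between the starts is printed on the plus strand. The minus-strand gene leaves to the left and the plus-strand gene to the right, and the CTCF match is in capitals.
Nae1/Car7, chr8:104534638-104534688, plus strand: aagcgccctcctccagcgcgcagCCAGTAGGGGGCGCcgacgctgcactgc
Nop14/Grk4, chr5:34660149-34660378, plus strand: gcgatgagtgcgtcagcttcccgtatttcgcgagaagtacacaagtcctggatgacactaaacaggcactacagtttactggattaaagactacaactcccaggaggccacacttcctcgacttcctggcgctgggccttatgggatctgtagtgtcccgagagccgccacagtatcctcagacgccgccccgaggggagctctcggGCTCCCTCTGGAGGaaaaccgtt
Vezt/Fgd6, chr10:94035818-94036000, plus strand: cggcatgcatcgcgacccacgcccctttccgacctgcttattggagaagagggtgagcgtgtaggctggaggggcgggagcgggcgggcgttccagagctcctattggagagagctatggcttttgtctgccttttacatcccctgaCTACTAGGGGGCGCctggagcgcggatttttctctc
Trove2/Uchl5, chr1:143777069-143777271, plus strand: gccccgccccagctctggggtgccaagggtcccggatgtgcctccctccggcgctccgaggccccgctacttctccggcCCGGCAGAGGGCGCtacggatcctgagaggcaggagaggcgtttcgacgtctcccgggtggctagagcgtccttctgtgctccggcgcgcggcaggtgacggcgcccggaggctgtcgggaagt
Of these intervals Nae1/Car7 has the shortest, and the 14 bases of the match stand in the middle of it.

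The last set shows bidirectional promoters with a summit between the starts but no consensus CTCF match within 50 bp of it, where a match to the ETS motif (CCGGAAG) or the NRF1 motif (GCGCANGCG) stood in the interval. Matches on either strand are in capitals, and N is any base.
Fam219a/Dnaic1, chr4:41569539-41569774, plus strand: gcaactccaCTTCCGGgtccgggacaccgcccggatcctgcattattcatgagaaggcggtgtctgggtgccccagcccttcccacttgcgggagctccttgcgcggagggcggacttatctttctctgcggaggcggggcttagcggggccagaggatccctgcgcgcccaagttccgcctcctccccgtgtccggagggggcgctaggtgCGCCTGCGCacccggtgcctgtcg
Park7/Tnfrsf9, chr4:150914438-150914561, plus strand: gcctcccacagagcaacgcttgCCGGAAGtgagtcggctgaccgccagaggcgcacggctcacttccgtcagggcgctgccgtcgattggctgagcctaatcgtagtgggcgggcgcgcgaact
Adprm/Sco1, chr11:67052595-67052669, plus strand: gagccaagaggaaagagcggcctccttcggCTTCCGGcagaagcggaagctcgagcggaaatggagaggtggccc
Fam219a/Dnaic1 held 1 ETS and 1 NRF1 match, while Park7/Tnfrsf9, which includes the gene for the redox-sensitive protein DJ-1, and Adprm/Sco1, which includes a copper chaperone of cytochrome c oxidase, held an ETS match. By the other searches described below, a weight matrix called a CTCF match at Fam219a/Dnaic1, and Adprm/Sco1 had a consensus match with 2 mismatches within 500 bp of the midpoint.

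The strongest of all bidirectional summits was at Wrap53/Trp53, with a strength of 647. Trp53 encodes the p53 tumour suppressor and Wrap53 a telomerase-associated protein of Cajal bodies. Their starts are 104 bp apart on chromosome 11, and the peak at chr11:69579276-69579638 had its summit in an intron of Wrap53, 783 bp from the Wrap53 start. Hnrnpdl/Enoph1, an RNA-binding protein gene beside an enzyme of methionine salvage, was second at 646, with the summit in a coding exon of Hnrnpdl.

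Nae1/Car7 followed at 629. Nae1 encodes a subunit of the enzyme that activates the ubiquitin-like protein NEDD8, and Car7 a carbonic anhydrase. Here the starts are 52 bp apart, and the summit lay between them, 18 bp from the nearer start. Abca17/Abca3 had a strength of 607 and Nop14/Grk4 a strength of 595, and both summits were also between the starts. Abca3 encodes a lipid transporter of lung surfactant, Nop14 a factor for building the small ribosomal subunit and Grk4 a kinase of G protein-coupled receptors.

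The next summits were at Ddias/Prcp (589), Exd1/Chp1 (588), Tctn3/Entpd1 (587) and Dtl/Ints7 (578). Tctn3 encodes a protein of the ciliary transition zone, Entpd1 an enzyme that degrades extracellular nucleotides, Dtl a substrate receptor of a ubiquitin ligase and Ints7 a subunit of the Integrator complex. Mrps12/Sars2, a mitochondrial ribosomal protein gene beside the mitochondrial seryl-tRNA synthetase gene, had a strength of 566, with its summit in a coding exon of Sars2. Dram1/Gnptab (561) and Chmp1a/Spata33 (546) closed the 12 strongest, Dram1 being a gene of autophagy and Chmp1a one of membrane remodelling. Of these 12, 11 had a CTCF match, 4 had the summit between the starts and 8 had it inside a gene.

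At the low end were Tada3/Arpc4, with a strength of 21.1, and a summit at Fbxl6/Slc52a2 with 19.5. Between them and the rest stood a second summit of the Dtl/Ints7 interval, listed at 21.4 in the same peak whose first summit had 578. None of these 3 had a CTCF match within 50 bp. The pair with the nearest starts among those with a summit was Bag5/Apopt1, 4 bp apart, with a strength of 124, and the pair with the farthest was Nisch/Sema3g, 914 bp apart, with 293. Neither had a match with at most 2 mismatches within 50 bp of its summit, though both had one with 2 mismatches within 500 bp of the midpoint of the starts.

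As a group the bidirectional summits were weak. Their median strength was 143, with quartiles of 81.0 and 293, against 210 at the 4125 summits near starts of unpaired coding genes, called one-way promoters here, and 252 at the 36636 summits away from coding starts. On the scale of all autosomal peaks, the median bidirectional summit stood at percentile 32.0, the median one-way summit at 44.5 and the median summit away from starts at 50.7. When all autosomal peaks were split by strength into 10 classes of equal size, the weakest class took 43 bidirectional summits (19.8%, 15.1 to 25.6), against 12.9% of one-way summits. The strongest class took 14 (6.45%, 3.88 to 10.5), against 11.2% of one-way summits. Only 70 bidirectional summits (32.3%) were in the stronger part of the list when it was divided at its median.

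**Figure D1:**
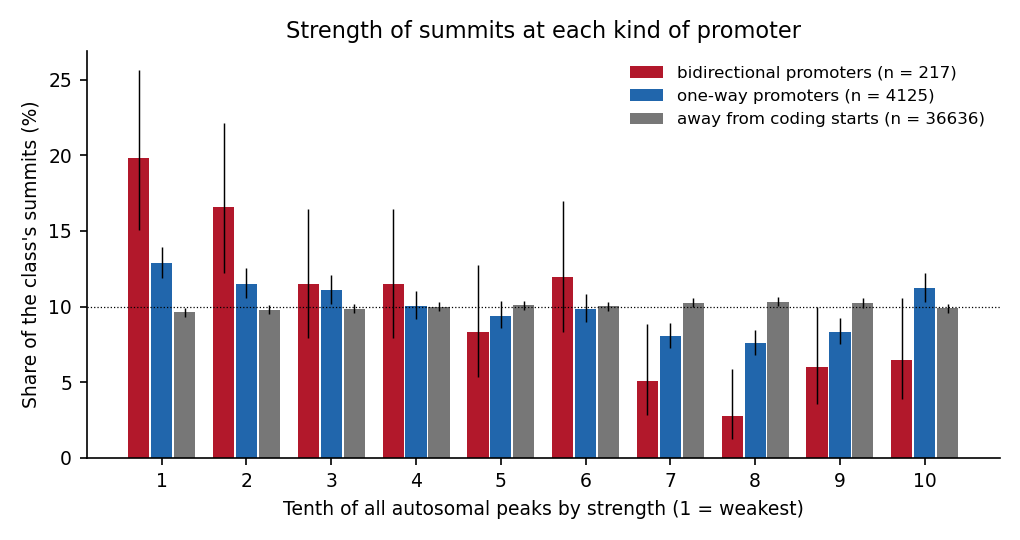
Share of summits (%) in each of 10 equal strength classes of all autosomal peaks, weakest first, for 217 bidirectional, 4125 one-way and 36636 other summits; bars are shares, black lines 95% Wilson intervals and the dotted line 10%. The bidirectional bars are highest in class 1, 19.8%, and lowest in class 8, 2.76%.

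The CTCF motif was scarcer at bidirectional summits than elsewhere. The 37.8% of bidirectional summits with a match compare with 50.2% (48.7 to 51.8) of one-way summits and 80.9% of summits away from coding starts. A weight matrix learned on summits away from coding starts, a second way to call a match, gave 35.0%, 49.8% and 86.2% for the same classes. At windows moved 2000 bp to either side of the bidirectional summits, the consensus was matched in 11 of 434 (2.53%). Those windows were not matched to the summits in CpG. In wider windows, 100 bp to either side of the midpoints of pairs without a summit, 9.32% had a match. A further 86 bidirectional summits (39.6%) had a best match with 3 mismatches, against 33.6% of one-way summits and 16.2% of all autosomal summits. The moved windows were not counted at 3 mismatches, so these are not read as CTCF sites.

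The match went with strength. With all autosomal peaks split into 5 equal strength classes, from weakest to strongest, 24.1%, 24.0%, 45.5%, 47.1% and 85.2% of bidirectional summits had a match (of 79, 50, 44, 17 and 27 summits). The same shares at one-way promoters were 28.8%, 39.1%, 49.8%, 63.4% and 78.9%. In class 2 the bidirectional interval, 14.3 to 37.4, overlapped the one-way interval, 35.9 to 42.4, only at its upper end, and in the other classes the one-way share lay inside the bidirectional interval. Median strength was 262 for bidirectional summits with a match and 115 for the rest.

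**Figure D2:**
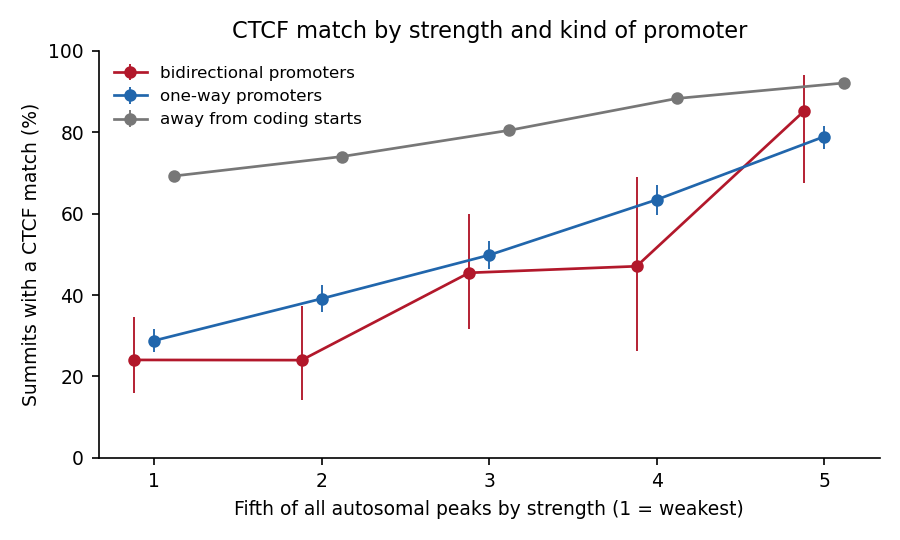
Share of summits (%) with a CTCF match at most 2 mismatches from the consensus, by strength class of all autosomal peaks (5 equal classes, 1 = weakest); points are shares and vertical lines 95% Wilson intervals. Bidirectional summits stand at 24.1% in the weakest class and 85.2% in the strongest, and summits away from coding starts lie between 69.2% and 92.1%.

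Bidirectional summits were also the richest in CpG of the 3 classes. The median ratio of observed to expected CpG, counted 100 bp to either side of the summit, was 0.80 at bidirectional summits, 0.71 at one-way summits and 0.21 away from coding starts. From low to high ratio (under 0.25, 0.25 to 0.5, 0.5 to 0.75 and over 0.75), a CTCF match stood at 50%, 37.5%, 39.7% and 36.4% of bidirectional summits (of 6, 24, 58 and 129), and the 4 intervals overlapped. One-way summits had a match at 79.1%, 63.3%, 49.2% and 39.8% in the same classes. When one-way summits were weighted to the strength and CpG classes of the bidirectional ones, their match share was 40.7%, inside the bidirectional interval. Soft-masked repeats held 4.15% of bidirectional summits, 5.94% of one-way summits and 21.4% of those away from starts.

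Where a match stood, its departures from the consensus were not spread evenly. Position 3 of the 14, counted from 1 at the 5′ end of the match, was the most often mismatched at promoters, in 34 of 82 bidirectional matches (41.5%) and 41.1% of one-way matches, against 14.1% of matches away from starts. Position 10 was mismatched in 12 bidirectional matches (14.6%), against 3.91% of one-way matches and 1.51% of matches away from starts. Position 5 was mismatched in 18.3% of bidirectional matches, against 32.0% of matches away from starts, where it was the most often mismatched.

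The summits rarely sat between the starts. Only 36 of 217 (16.6%, 12.2 to 22.1) did, while 92 lay in the minus-strand gene and 89 in the plus-strand gene. By annotation, 87 were in an exon with UTR sequence, 24 in a coding exon, 12 in another exon and 58 in an intron. The median summit lay 115 bp inside a gene and 230 bp from the midpoint of the starts. At one-way promoters, 43.8% of summits were inside the gene, but there the upstream side of the start is not counted as gene. At a pair, gene lies on both sides of the interval between the starts, so these shares are not like measures.

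The interval between the starts makes up 10.7% of the window that the rule allows, and it held 16.5% of the matches of a summit to a pair. Few summits lay there, but the interval held more than its share of the window. Over the whole window there were 0.169 matches per kb. Per kb of allowed window, matches of a summit to a pair were most frequent in the first 100 bp inside either gene, at 0.459 per kb, followed by the interval between the starts, at 0.261 per kb. They came to 0.213 per kb from 101 to 250 bp inside a gene, 0.110 per kb from 251 to 500 bp and 0.0753 per kb from 501 to 1000 bp. Summits with a CTCF match had the same order, with 0.151 per kb in the first 100 bp and 0.0986 per kb between the starts. The gene start used here is the outermost annotated one. With the starts of single coding transcripts instead, 34.4% of 323 summits lay between the starts.

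The share with a CTCF match was nearly the same in every kind of position, at 13 of 36 summits between the starts (36.1%), 32 of 87 in UTR exons (36.8%), 10 of 24 in coding exons (41.7%) and 22 of 58 in introns (37.9%). The match read in the direction of the nearer gene in 35 of 82 cases (42.7%, 32.5 to 53.5). Among the 50 strongest bidirectional summits, 14 (28.0%) lay between the starts and 34 (68.0%) had a match. Of the 50 weakest, 4 lay between the starts and 14 had a match (28.0%).

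**Figure D3:**
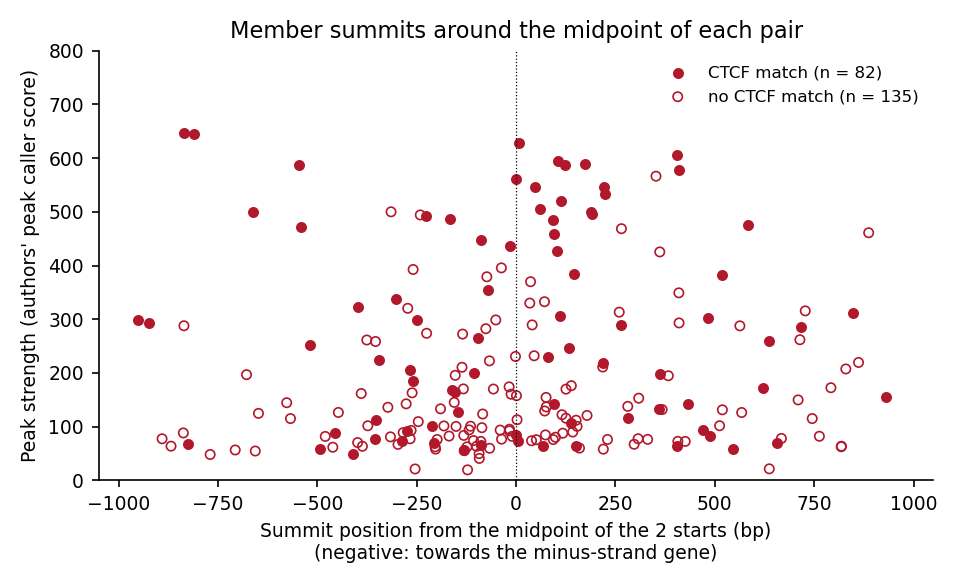
Each of the 217 bidirectional summits by its distance from the midpoint of the 2 starts (bp, horizontal) and its strength (authors' score, vertical); filled points have a CTCF match (n = 82), open points have none (n = 135). Open points crowd below a strength of 200, while most points above 500 are filled.

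In 10 cases the match lay wholly between the starts. Besides Nae1/Car7, Abca17/Abca3 and Nop14/Grk4, these were Lamtor2/Ubqln4 (534), Vezt/Fgd6 (506), Aamdc/Rsf1 (460), Trove2/Uchl5 (436), Foxa3/Sympk (337), Tada2b/Ccdc96 (265) and Usp35/Kctd21 (84.2). They include genes of nutrient sensing at the lysosome (Lamtor2), chromatin remodelling (Rsf1), deubiquitination (Uchl5 and Usp35) and mRNA 3′ end formation (Sympk). Nae1/Car7 was the only one with an exact match, so only 1 pair could be named under that heading.

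The strongest summits without a CTCF match were at Mrps12/Sars2 (566), B3galt6/Sdf4 (500.04), Bysl/Med20 (494), Thap2/Zfc3h1 (469) and Ccdc173/Phospho2 (461). B3galt6 encodes a galactosyltransferase of proteoglycan synthesis, Bysl a ribosome assembly factor and Med20 a Mediator subunit. All 5 had a partner in each pool's own list. The weight matrix did call a match at Mrps12/Sars2, and it called none at the other 4.

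The share of pairs with a summit differed little with the distance between the starts. The window allowed by the rule is shorter for starts farther apart, so the distance classes were not searched over equal lengths. The share with a summit was 23.2% of pairs with starts 1 to 50 bp apart, 29.8% at 51 to 100 bp, 31.0% at 101 to 200 bp, 32.1% above 200 and up to 400 bp, and 20.5% at 401 to 1000 bp, and all of these intervals overlapped. The median distance between starts was 131 bp at pairs with a summit and 127 bp at pairs without. By chromosome the share ranged from 21 of 46 pairs on chromosome 1 to 4 of 37 on chromosome 13.

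The sequence near the starts separated pairs more. Of the 30 pairs with a consensus match of no or 1 mismatch within 500 bp of the midpoint, 25 (83.3%, 66.4 to 92.7) had a summit, against 183 of the other 704 pairs (26.0%). With up to 2 mismatches, 115 of 304 pairs (37.8%) with a match had a summit, against 93 of 430 without (21.6%). The motif was searched at fixed windows here, so this share does not rest on where the summits lay. Most pairs with a summit nevertheless had no close match, since only 25 of the 208 belonged to the 30.

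In windows of equal length, 500 bp to either side of the midpoint or start, 173 of 734 bidirectional pairs (23.6%, 20.6 to 26.8) held a summit, against 15.6% of 19359 one-way starts. The pairs were richer in CpG, with 84.7% over an observed to expected ratio of 0.6, against 48.3% of one-way starts. Among those over 0.6, a summit stood at 24.9% of pairs (21.7 to 28.5) and 25.1% of one-way starts (24.2 to 25.9), so the difference of 8.0 percentage points became -0.13. Among those at 0.6 or less, 18 of 112 pairs (16.1%, 10.4 to 24.0) and 6.72% of one-way starts had one.

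**Figure D4:**
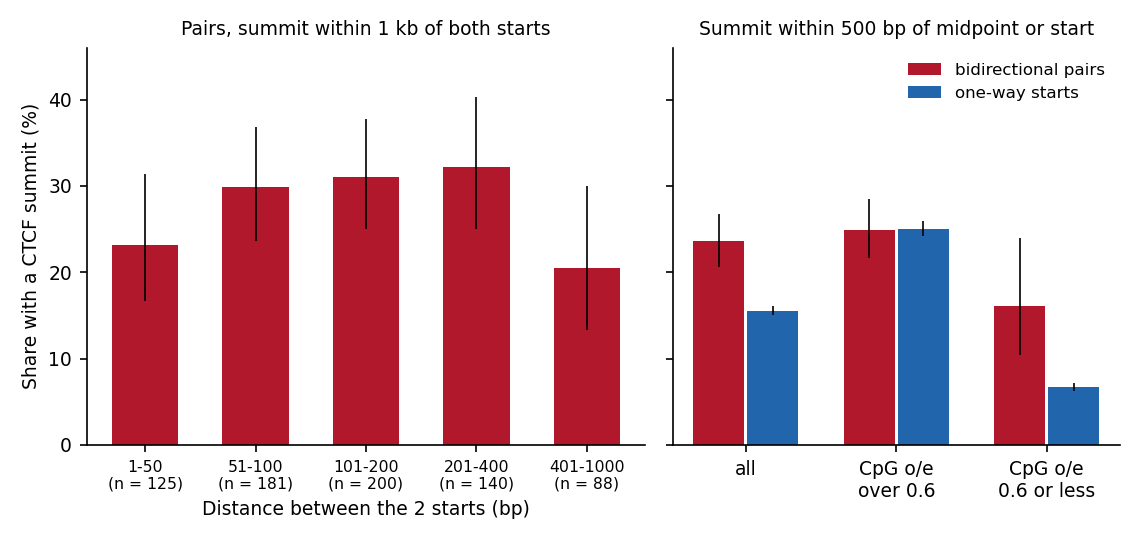
Left, share (%) of the 734 bidirectional pairs with a summit within 1 kb of both starts by distance between the starts (bp). Right, share (%) with a summit within 500 bp of the midpoint of a pair or of a one-way start, for all and by CpG observed/expected ratio; lines are 95% Wilson intervals. Pairs and one-way starts with a CpG ratio over 0.6 stand at 24.9% and 25.1%.

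Motifs of other promoter factors were counted on both strands, 100 bp to either side of the midpoint of a pair or of a one-way start. The ETS motif stood at 22.5% of all pairs against 8.82% of one-way starts, and the NRF1 motif at 17.3% against 6.39%. The GC box (GGGCGG), bound by Sp and KLF factors, stood at 57.4% against 39.4%, the CCAAT box (CCAAT) of NF-Y at 37.9% against 27.5%, and the CREB/ATF motif (TGACGTCA) at 4.36% against 1.88%. TATA boxes (TATAAA) were at 3.68% of pairs against 8.60% of one-way starts. Motifs that share letters, such as the GC box and a part of the CTCF core, can overlap. The ETS, NRF1, GC box and CREB/ATF motifs each hold a CpG, and one-way starts were poorer in CpG, with a median ratio of 0.57. These shares were not taken at matched CpG.

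The NRF1 motif and the GC box had larger shares at pairs with a CTCF summit than at pairs without, but the intervals overlapped. The median CpG ratio was also higher at pairs with a summit, 0.89 against 0.85. The NRF1 motif was at 22.1% (17.0 to 28.2) of pairs with a summit and 15.4% (12.6 to 18.7) of pairs without. The GC box was at 63.5% (56.7 to 69.7) of pairs with a summit and 54.9% (50.7 to 59.1) of pairs without. The ETS motif, at 21.2% and 23.0%, and CCAAT, at 38.5% and 37.6%, were closer. Around the bidirectional summits themselves, 31 of the 135 without a CTCF match (23.0%, 16.7 to 30.7) had an ETS, NRF1, YY1 or ZNF143 motif, as had 18 of the 82 with a match (22.0%). At one-way summits without a CTCF match the share was 14.5%, and at all autosomal summits 3.42%. The YY1 motif searched was AAGATGGCG and the ZNF143 motif ACTACAATT, both without a mismatch. So strict a search found the ZNF143 motif at 0 of the 217 bidirectional summits, so none of their share came from it. The string allows no variant base and misses a variant that stands in the Nop14/Grk4 interval printed above. The 0 thus does not show that such sites were absent.

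The pool E values behind these peaks were larger than those of pool F. The conservative list was built from 1 input per pool and keeps peaks ranked in both, so that a peak had a value in each was set by the choice of list. The first input is read as pool E and the second as pool F, because the first value was found among the ranked peaks of pool E for 216 of the 217 bidirectional peaks and the second among those of pool F for 214. The median input strength at bidirectional summits was 104 for pool E, against 40.3 for pool F. The log2 ratio of the pool E to the pool F value had a median of 1.12, against 1.04 at one-way summits and 1.03 over all autosomal summits. With a CTCF match the ratio was 0.96 and without one 1.20, and over all autosomal summits 0.99 and 1.16.

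Partners in the pools' own thresholded lists, with at least 50% reciprocal overlap, were found for 180 bidirectional peaks in pool E (82.9%, 77.4 to 87.4) and for 107 in pool F (49.3%, 42.7 to 55.9). The shares over all autosomal peaks were 87.7% in pool E and 66.2% in pool F. Both lists held 91 of the bidirectional peaks, pool E alone 89, pool F alone 16 and neither 21. This split was not counted over all autosomal peaks, so it is not shown to be particular to these promoters. The shares did not climb evenly with strength. From the weakest to the strongest of the 5 strength classes, the pool E list held 75.9%, 78.0%, 100%, 100% and 74.1% of bidirectional peaks, against 78.6%, 75.9%, 99.9%, 99.9% and 84.4% of all autosomal peaks. The pool F list held 17.7%, 58.0%, 68.2%, 58.8% and 88.9% of bidirectional peaks, against 15.8%, 46.7%, 81.1%, 89.1% and 98.5% of all autosomal peaks. In pool E the strongest class thus had the lowest bidirectional share. In pool F the bidirectional share lay above that of all peaks in classes 1 and 2 and below it in classes 3 to 5, and the share of all peaks was outside the bidirectional interval in classes 3, 4 (36.0 to 78.4) and 5 (71.9 to 96.1). Without the IDR threshold, the ranked pool lists held 91.2% of bidirectional peaks in pool E and 81.6% in pool F.

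**Figure D5:**
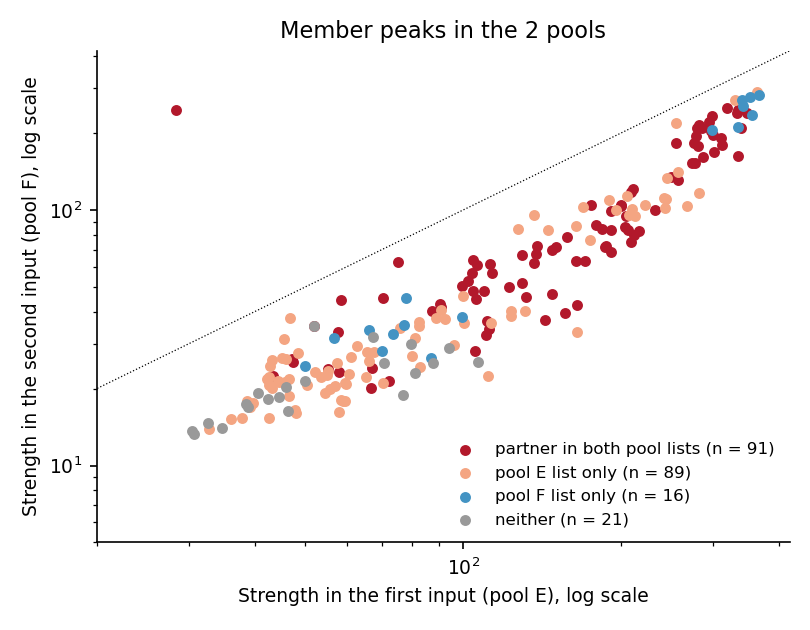
Strength of each of the 217 bidirectional peaks in the pool E input (horizontal, log scale) and the pool F input (vertical, log scale), coloured by the pool lists that hold a partner; the dotted line marks equal values. All but 1 point lie below the line, and the exception is the second summit of the Dtl/Ints7 interval.

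Absence from a pool's list was not the same as a weak signal there. Among the 12 strongest, 7 had a partner in the pool E list, 10 in the pool F list and 5 in both. Nae1/Car7 had a ranked pool E peak of strength 353 whose IDR was 0.601, so it missed the threshold, and in pool F it had 276 with an IDR of 0.000952. Wrap53/Trp53 had 363 in pool E with an IDR of 0.00488, and 288 in pool F with an IDR of 0.185. Hnrnpdl/Enoph1, Abca17/Abca3, Nop14/Grk4 and Tctn3/Entpd1 also missed the pool E threshold with ranked strengths of 368, 341, 342 and 355. IDR rates how well the ranks of a peak match between inputs, and it can be high for a strong peak.

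At most pairs counted as having no summit, any peak that was listed was weak. Of the 526, 374 (71.1%) had a ranked candidate peak that failed the threshold. The strongest candidate of each had a median strength of 26.0, and 92 were below the weakest bidirectional summit. Only 3 of these were above the median bidirectional summit, and all 3 were above 500. They stood at Tas1r1/Nol9, with a strength of 669 and an IDR of 0.107, at Hjurp/Trpm8, with 646 and 0.610, and at Exosc8/Alg5, with 578 and 0.0841. Trpm8 encodes the cold receptor, Hjurp a centromere chaperone and Exosc8 a subunit of the RNA exosome. These 3 pairs were singled out after their values were seen.

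In the pools' own lists, 279 pairs had a summit in pool E (38.01%) and 148 in pool F (20.2%), with 136 in both, 143 in pool E alone and 12 in pool F alone. The depositors' larger combined list, with 48276 autosomal peaks, had one at 270 pairs. The pool lists differ in length, with 49492 autosomal peaks in pool E and 32844 in pool F. Bidirectional summits numbered 301 of the former and 156 of the latter. The counts of pairs per list are therefore not on an equal footing.

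Well-known bidirectional pairs were looked up by name. Of 17, 8 met the rule on gene starts and 4 of them had a summit. Besides Wrap53/Trp53 and Mrps12/Sars2, these were Pdcd10/Serpini1, with a strength of 113 and the summit 6 bp inside Pdcd10, and Atm/Npat, with 95.3 and the summit between the starts. Atm encodes a DNA damage kinase and Npat an activator of histone genes. Of those without a summit, Mcm4/Prkdc, Psmb1/Tbp and Toe1/Mutyh each had a ranked candidate, with strengths of 26.5, 25.8 and 23.3 and IDR values of 0.610, 0.167 and 0.167.

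Listed groups of genes, not all of them often found at such promoters, were set against the 28.3% of all pairs. The share of a group's genes that stood in pairs ran from 4.92% for muscle genes to 40.3% for replication-dependent histones. It was 5.19% for zinc finger proteins and 6.98% for collagens, against 6.96% of all autosomal protein-coding genes. For DNA repair and replication, 8 of 33 pairs had a summit (24.2%, 12.8 to 41.02), led by Wrap53/Trp53, and Abhd12/Gins1 had none. For mitochondrial ribosomal proteins it was 4 of 18, led by Mrps12/Sars2, without one at Eme2/Mrps34. Subunits of oxidative phosphorylation had 2 of 22 (9.09%, 2.53 to 27.8), led by Uqcrh/Lrrc41 at 285, and Atp5h/Kctd2 had none. The interval of that group alone among those of 20 or more pairs ended below the share of all pairs.

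Cilium and centrosome genes had a summit at 6 of 26 pairs, led by Tctn3/Entpd1, and Arcn1/Ift46 had none. RNA polymerase and Mediator subunits had 6 of 14, led by Polr3a/Rps24 at 546, and Dzank1/Polr3f had none. That pair also led the cytosolic ribosomal proteins, where it was the 1 pair of 10 with a summit and Iqcg/Rpl35a had none. Proteasome subunits had 3 of 7, led by Ftsj3/Psmc5 at 207, and Dnajc2/Psmc2 had none. Aminoacyl-tRNA synthetases had 3 of 5, again led by Mrps12/Sars2, and Kars/Terf2ip had none.

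Chaperones had 3 of 12, led by Lrrc42/Hspb11 at 184, and Cct6b/Zfp830 had none. Zinc finger proteins had 4 of 18, led by Zfp319/Usb1 at 493, and Ccdc92/Zfp664 had none. Transmembrane proteins without a named function had 5 of 23, led by Lrrc29/Tmem208 at 288, and Chchd4/Tmem43 had none. Replication-dependent histones had a summit at 1 of 14 pairs (7.14%, 1.27 to 31.5), Bola1/Hist2h2ab at 126. That was the only one of the 14 to join a histone gene to another kind of gene. None of the pairs of histone with histone, such as Hist1h2ac/Hist1h2bc, had one in the conservative list. Hist1h2ak/Hist1h2bn, Hist1h2ae/Hist1h2bg and Hist2h2ac/Hist2h2be had one in both the combined and the pool E list. Mitochondrial import genes had 0 of 4, with none at Sdhd/Timm8b, and collagens 0 of 2, with none at Col4a4/Col4a3. A count of 0 in so few pairs sets no useful limit.

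Of 61 muscle genes, 3 (4.92%) stood in bidirectional pairs, close to the 6.96% of all autosomal protein-coding genes. Of these, Tbc1d10b/Mylpf had a summit, with a strength of 171 and a CTCF match in a UTR exon, 409 bp inside Mylpf, the gene of a fast-fibre myosin light chain. Actn3/Zdhhc24 had none, Actn3 being the alpha-actinin of fast fibres. These counts hold for the listed genes only, and Myl12b/Myom1, outside the list, had a summit of strength 272.

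Some pairs held more than 1 summit. At Dcaf6/Mpc2, which includes a mitochondrial pyruvate carrier subunit, 3 summits had strengths of 262, 84.6 and 63.7, the second of them between the starts. Idh1/Pikfyve had 288 in an intron of Idh1 and 116 in Pikfyve, Hscb/Chek2 had 312 and 211, both in introns of Chek2, and Uqcrh/Lrrc41 had 285 and 88.3. The nearest other summit of the whole list was at a median distance of 8793 bp from a bidirectional summit and 7698 bp from a one-way summit.

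At the edge of the rule, the last summits kept were at Fbxl6/Slc52a2, Atp6v1a/Naa50 and Cdc26/Prpf4, 993, 993 and 1000 bp from the farther start, with strengths of 298, 155 and 293. The first ones left out were at Brca1/Nbr1, Fig4/Ak9 and Sobp/9030612E09Rik, at 1002, 1012 and 1036 bp, with strengths of 137, 398 and 66.7.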

How the data were processed

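Peaks came from CTCF ChIP-seq of gastrocnemius in 4 libraries, 2 from each of 2 pools. Per the labels, they were called on mm10 alignments and ranked or thresholded by IDR; the aligner and peak caller are not given in the sources used here. The authors deposited peak strength as a score, the summit offset in bp, and, in ranked lists, the −log10 of the IDR. Read depth per library was not used here, so intervals cover counting error only.

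Pairs were built from GENCODE M21 gene starts. CTCF matches were searched on both strands in GRCm38, with at most 2 mismatches over 14 bases, centred within 50 bp of the summit. CpG was counted 100 bp to either side. Partners needed 50% reciprocal overlap. Intervals are 95% Wilson intervals from scipy 1.17.1; sequences were read with pysam 0.24.0. The search was tested on simulated data. No test between conditions was possible.

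Genes named were the 12 strongest and 3 weakest, the nearest and farthest starts, the 5 strongest with an exact match between the starts and without a match, looked-up pairs, and per list the strongest pair and the first by symbol without a summit. Members and lists were chosen with earlier results of these data known. 1 looked-up pair is not reported here.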

Additional observations from a re-analysis of the deposited data

How the results depend on the processing

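No paired analysis was possible because each list already merges its technical replicates and no result comes from a test; for the same reason no single replicate could be left out, and the lists of pool E and pool F stand in for it. Of 82 alternatives over 11 results, 50 kept the value within its interval or the count within 1.5 times, and 31 moved it. The remaining 1, counted as reversed, was the difference between pairs and one-way starts. It was 8.0 percentage points in the main setting and -0.13 among promoters with a CpG ratio over 0.6. The interval there, -3.49 to 3.52, spans both signs, so the difference was lost rather than turned round. At a ratio of 0.6 or less it was 9.35 points (3.67 to 17.3). Both of these alternatives were added after seeing the data.

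The share of pairs with a summit was 36.8% in the combined list, 38.01% in pool E, 20.2% in pool F, 9.81% among the stronger part of the peaks (72 pairs and 70 summits) and 20.4% within 500 bp of both starts. The share between the starts was 25.7% in that stronger part and 34.4% with transcript starts. The median CpG ratio was 0.86 within 500 bp.

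The match share at bidirectional summits, 37.8%, was 31.2% in the combined list, 61.4% in the stronger part, 44.7% within 100 bp, 10.6% with at most 1 mismatch and 0.922% with none. At one-way summits, 50.2%, it was 45.0% in the combined list, 42.7% in pool E, 56.9% in pool F, 68.1% in the stronger part, 47.4% within 500 bp, 52.1% with transcript starts, 20.6% with at most 1 mismatch, 3.61% with none, 53.8% within 100 bp and 40.7% when reweighted, the last added after seeing the data. In all of these settings run on both classes the bidirectional share was the lower.

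Partners in pool E were found for 91.7% of peaks at an overlap of 1 bp, 68.2% at 80% and 91.2% in the ranked list. In pool F these shares were 65.0%, 12.4% and 81.6%. Over all autosomal peaks the pool E shares were 95.9% at 1 bp and 76.6% at 80%, and the pool F shares 78.8% and 8.95%. In pool F the bidirectional share was thus the lower at 1 bp and at 50%. At 80% it was the higher, with an interval of 8.69 to 17.5 that held the share of all peaks. The ranked lists were not searched for partners of all autosomal peaks. The lists record no read counts, so what depth limits cannot be given.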

Other observations

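Sgce/Peg10, a pair of imprinted genes, held a bidirectional summit of strength 379 in a UTR exon 24 bp inside Sgce, with a best CTCF match of 3 mismatches and a partner in the pool E list. The mice were hybrids of 2 strains, but the lists do not separate alleles, so no value per parental copy can be given. Another 22 autosomal summits lay near 1 start of a pair only, with a median strength of 142, and 12 of them had a CTCF match (54.5%, 34.7 to 73.1).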
